A study of Mus musculus with 3 samples.

Results

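Claudins are membrane proteins of the tight junction, the seal between neighbouring epithelial or endothelial cells. The claudins described here are the 10 genes Cldn1, Cldn2, Cldn3, Cldn4, Cldn5, Cldn7, Cldn10, Cldn12, Cldn18 and Cldn23, taken with every probe whose RefSeq accession belongs to one of them. They make up 10 of the 21150 genes named on the array and had 12 probes, 1 each for 8 genes and 2 each for Cldn2 and Cldn4. A further 22 claudin genes on the array served for comparison.

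Total RNA came from laser-microdissected pancreas of wild-type mice 48 h after pancreatitis was induced with caerulein, a peptide that drives acinar secretion. The groups were acinar cells, which make digestive enzymes, duct cells, which line the outflow tract, and cells of acinar-to-ductal metaplasia (ADM), in which acinar cells take on duct features. Each group had 1 array, and all 3 groups shared the caerulein treatment, so there was no uninjured group. The strain, age and sex of the mice, how the cells were recognised, and how many mice contributed to each array are not given in the sources used here.

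Claudins hold adjoining cells together through their extracellular loops and are bound inside the cell by scaffold proteins such as ZO-1. Some mainly tighten the barrier, while others form channels for ions or water. The mix in an epithelium therefore sets how leaky the space between its cells is, and secretory epithelia such as the pancreas use both kinds.

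The labelled cell types were set against their markers, counted at 2-fold. Of all compared genes, 27.4% were higher and 24.6% lower in duct than in acinar. In ADM against acinar the shares were 21.8% and 22.0%. Acinar markers were lower on the duct array than on the acinar array in 12 of 12 genes, and on the ADM array in 11 of 12. Duct markers were higher in duct than in acinar in 11 of 11 compared genes. In ADM against acinar, 5 of 11 were higher and 2 lower. The chloride channel gene Cftr was not well above background on any array. Markers of other cells differed too. Of 12 macrophage and monocyte markers, 10 had higher levels on the ADM array than on the acinar array and 0 lower. Fibroblast and stellate cell markers were higher than in acinar in 9 of 12 on the duct array and in 9 of 11 on the ADM array. On each of these arrays 1 was lower. In such material fewer cells of a type and less RNA per cell cannot be told apart, and the part of other cells in the claudin values was not tested.

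The RefSeq start sites of Cldn2, Cldn3, Cldn4 and Cldn10 are shown because Cldn2 and Cldn10 are the channel formers that differed from acinar in opposite directions, and Cldn3 and Cldn4 lie side by side in the genome but differed in pattern. RefSeq's table gave a window for 9 of the 10 genes, and Cldn23 was the gene without one. Each stretch is the 250 bases before an annotated start, read 5′ to 3′ on the gene's strand in build GRCm38.p6. Capitals mark the motifs TATAAA (the core promoter box), CCAAT (another common promoter element), GGGCGG (GC box) and TGANTCA (AP-1 type) on either strand.
Cldn2, chrX:139800558-139800807, plus strand: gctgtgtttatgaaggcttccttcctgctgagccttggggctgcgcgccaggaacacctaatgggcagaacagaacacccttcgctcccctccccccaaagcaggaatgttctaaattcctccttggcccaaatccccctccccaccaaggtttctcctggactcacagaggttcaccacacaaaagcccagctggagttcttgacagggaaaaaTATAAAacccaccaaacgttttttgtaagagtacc
Cldn3, chr5:134985964-134986213, plus strand: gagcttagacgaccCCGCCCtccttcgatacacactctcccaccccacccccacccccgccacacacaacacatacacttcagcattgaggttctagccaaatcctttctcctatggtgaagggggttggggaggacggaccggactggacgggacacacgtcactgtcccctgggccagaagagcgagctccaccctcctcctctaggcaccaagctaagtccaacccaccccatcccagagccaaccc
Cldn4, chr5:134946935-134947184, minus strand: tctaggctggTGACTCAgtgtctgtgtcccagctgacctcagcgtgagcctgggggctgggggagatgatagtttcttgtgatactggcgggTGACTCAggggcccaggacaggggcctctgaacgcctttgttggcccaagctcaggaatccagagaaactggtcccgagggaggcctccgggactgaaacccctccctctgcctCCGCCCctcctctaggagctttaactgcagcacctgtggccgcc
Cldn10 upstream start, chr14:118787621-118787870, plus strand: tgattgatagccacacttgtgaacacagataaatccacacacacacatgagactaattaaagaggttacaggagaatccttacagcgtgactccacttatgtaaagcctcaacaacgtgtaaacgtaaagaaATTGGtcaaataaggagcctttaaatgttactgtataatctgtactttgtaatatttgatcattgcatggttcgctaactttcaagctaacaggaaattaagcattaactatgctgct
Cldn10 downstream start, chr14:118854700-118854949, plus strand: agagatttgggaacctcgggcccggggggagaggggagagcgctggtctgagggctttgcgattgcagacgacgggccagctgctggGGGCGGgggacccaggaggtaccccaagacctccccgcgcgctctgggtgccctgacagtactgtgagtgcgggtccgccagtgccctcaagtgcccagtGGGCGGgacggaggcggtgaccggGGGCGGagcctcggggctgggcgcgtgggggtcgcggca
The Cldn2 stretch holds a TATAAA beginning 35 bases before the start, and 12.4% of all 32851 windows of this length hold that motif. In the Cldn4 stretch TGACTCA occurs 2 times, beginning 240 and 158 bases before the start, where 6.7% of all windows hold the AP-1 type motif. The Cldn10 starts differ in base composition, with 36.0% G and C upstream and 72.4% downstream against a median of 52.4% over all windows. The downstream Cldn10 stretch holds 3 GC boxes and the upstream one holds 1 CCAAT, motifs found in 32.7% and 33.8% of all windows. Cldn3 and Cldn4 are direct neighbours on chromosome 5, with no protein-coding gene between them in the RefSeq table, and are read from opposite strands. A match to a motif is a description of these letters only.

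Levels are log2 processed signal relative to the array's 75th percentile over non-control probes, so that 0 is that percentile. Probes bind with different strength, so a level is compared between arrays and not between probes. A probe well above background passed the scanner software's own test, and the lowest such level was −3.15 on the ADM array, −3.28 on duct and −2.04 on acinar. Of the 10 genes, 9 were well above background on at least 1 array and 5 (Cldn3, Cldn4, Cldn7, Cldn10 and Cldn12) on all 3. For most bright probes the scanner software's error of a difference between arrays was about 0.20 log2 units. It leaves out the spread between mice, between extracts and from amplification. Where a gene had 2 probes, the brighter one stood for it.

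**Figure D1:**
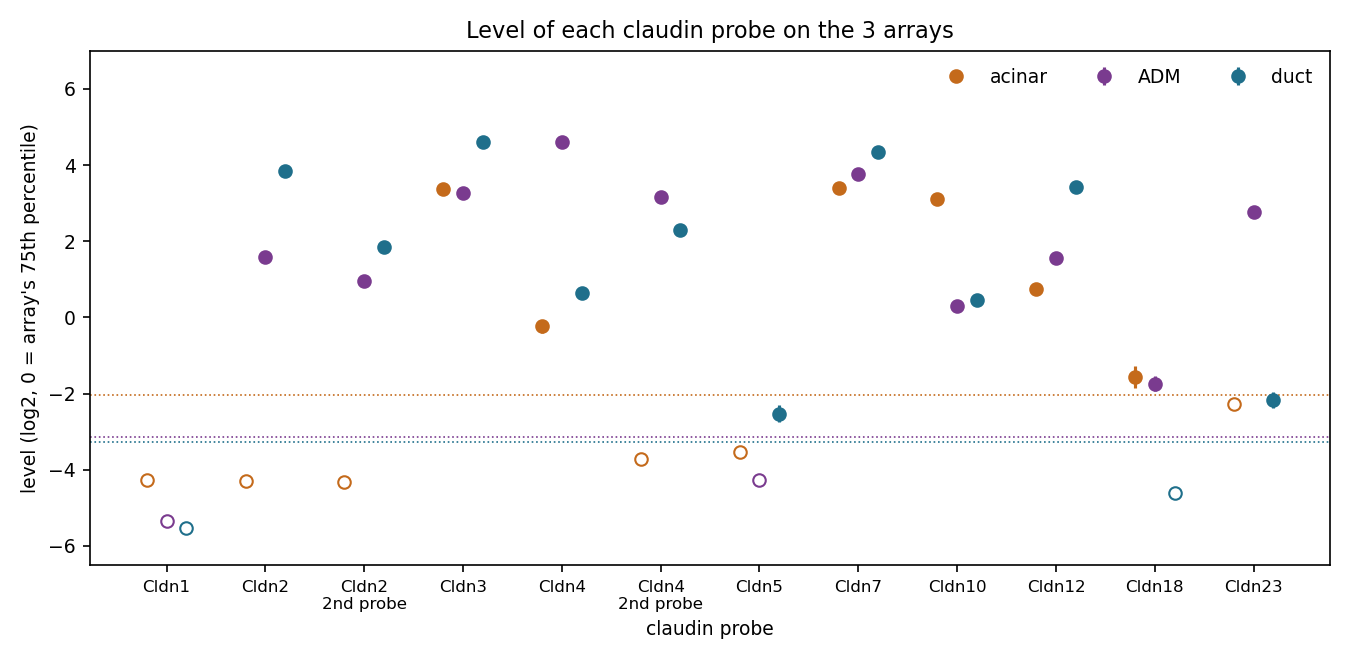
Level of each claudin probe on the acinar, ADM and duct arrays, in log2 units where 0 is the array's 75th percentile. Filled points were well above background and carry the scanner software's error, open points were not well above background, and dotted lines mark each array's lowest level well above background; Cldn2 was at background in acinar only, whereas Cldn10 was highest there.

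Among claudins that form channels, Cldn2 makes pores for cations and water. Its brighter probe had a level of −4.29 in acinar, 1.59 in ADM and 3.83 in duct. The second probe gave −4.33, 0.97 and 1.84. Both probes were not well above background in acinar and were clearly measured on the other arrays, with duct above ADM. Duct was at least 58.7-fold above acinar by the brighter probe and at least 14.7-fold by the second one, and ADM was at least 12.4-fold and at least 8.06-fold above acinar. With normexp, another background correction, the brighter probe's bounds were smaller, at 3.83 log2 units for duct minus acinar and 1.71 for ADM minus acinar, both past 2-fold. This correction adds an offset of 50 intensity units to each spot, which shrinks the differences of dim probes. The order of duct over ADM was the same for both probes, but its size was −2.24 (ADM minus duct, scanner error 0.20) by one and −0.87 by the other, which is under 2-fold.

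Cldn10 also forms channels, with anion- and cation-selective forms made from its alternative first exons. Its single probe had a level of 3.11 in acinar, 0.29 in ADM and 0.45 in duct. The acinar array stood alone at the top, and the ADM and duct arrays lay together below it. Cldn10 was thus 6.33-fold lower in duct than in acinar (−2.66, scanner error 0.21) and 7.07-fold lower in ADM (−2.82, scanner error 0.21). ADM and duct differed by −0.16, less than the scanner error of 0.21. Normexp background correction put the differences from acinar at −1.56 for duct and −1.69 for ADM, still past 2-fold. Which of the 2 start sites gives rise to the RNA read by this probe was not tested.

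Cldn3, Cldn4 and Cldn7 are barrier-type claudins of many simple epithelia, and Cldn3 and Cldn4 are receptors of the Clostridium perfringens enterotoxin. Cldn3 had a level of 3.37 in acinar, 3.27 in ADM and 4.59 in duct. It stood out in duct, where it was 2.34-fold above acinar (1.23, scanner error 0.20) and 2.51-fold above ADM. ADM minus acinar was −0.10, inside the scanner error, and its sign turned with median scaling (0.13). With normexp this difference was 0.38, past that error but within 2-fold.

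Cldn7 had a level of 3.40 in acinar, 3.76 in ADM and 4.33 in duct. All 3 arrays thus lay within 2-fold of each other for this gene. The duct array was 1.91-fold above acinar and 1.49-fold above ADM, and the ADM array 1.28-fold above acinar. Duct against acinar was close to the 2-fold mark and passed it with median scaling (1.32), quantile normalisation (1.12) and normexp (1.48). The rise was not particular to Cldn7, since Cldn3 rose under the same settings (to 1.61, 1.45 and 1.78).

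Cldn4 gave the most divided picture, because its 2 probes placed the duct array differently. By the brighter probe the level was −0.23 in acinar, 4.59 in ADM and 0.64 in duct. By the second probe it was −3.73 in acinar, not well above background there, 3.15 in ADM and 2.30 in duct. ADM was the highest array for both probes and acinar the lowest. ADM exceeded acinar 28.3-fold by the brighter probe (4.82, scanner error 0.22) and at least 36.6-fold by the second one.

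The duct array was near acinar by one Cldn4 probe and near ADM by the other. Duct was 1.83-fold above acinar by the brighter probe and at least 20.3-fold by the second. ADM was 15.5-fold above duct by the brighter probe (3.95) and 1.80-fold by the second (0.85). This gap of 3.10 log2 units was matched or exceeded in 199 of the 2292 genes with both probes measured on these arrays (8.68%), whose median gap was 0.93. For Cldn2 the gap was 1.37, reached by 36.3% of those genes. The place of duct cells in the Cldn4 order therefore rests on the choice of probe, and the 2-fold difference between ADM and duct was present for 1 probe of 2.

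**Figure D2:**
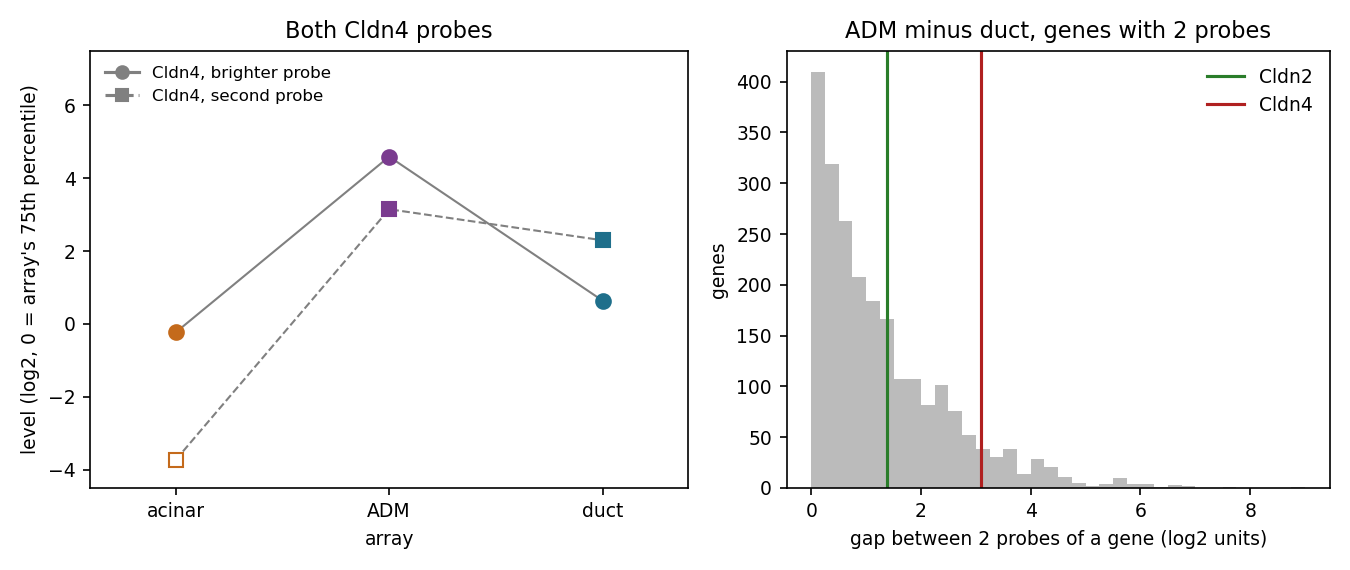
Left, level of both Cldn4 probes on the acinar, ADM and duct arrays (log2, 0 is the array's 75th percentile; the open square was not well above background). Right, number of genes by the absolute gap in log2 units between the ADM minus duct differences of their 2 probes, with lines for Cldn2 (1.37) and Cldn4 (3.10).

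Cldn5 is the main claudin of endothelial cells. Its level was −3.54 in acinar and −4.28 in ADM, both not well above background, and −2.53 in duct, a signal of 16.6 intensity units. It was therefore measured on the duct array only, and no fold above acinar could be given because the lowest measurable acinar level lay higher. Duct was at least 1.54-fold above ADM in the reported setting. With normexp, whose offset exceeds this signal, ADM minus duct was −0.02. Of 12 endothelial markers, 10 were well above background on the duct array, 9 on ADM and 6 on acinar, and their summed signal in units of the 75th percentile was 41.0, 20.7 and 16.8. The cadherin gene Cdh5 had levels of 1.25 in duct, −0.64 in ADM and −2.47 in acinar, the last not well above background. Other endothelial genes had other orders. Kdr was highest in acinar, at 3.75 against 3.13 in ADM and 2.54 in duct, and gave most of the acinar sum, and Pecam1 was well above background in ADM only (−0.57). At 2-fold, 7 of 10 compared endothelial markers were higher in duct than in acinar and 1 lower, beside 27.4% and 24.6% of all genes. The part of endothelial RNA in the Cldn5 value was not tested.

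Cldn1, a barrier claudin best known from skin, was not well above background on any array, with levels of −4.28 in acinar, −5.35 in ADM and −5.54 in duct. Such levels have no order, and no difference is given. Cldn18 is known mainly from stomach and lung. Its level was −1.57 in acinar and −1.74 in ADM, and −4.61 in duct, not well above background there. The acinar and ADM arrays agreed within the scanner error (−0.17 against an error of 0.36), and both lay above duct.

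For Cldn18, duct was at least 3.26-fold below acinar and at least 2.90-fold below ADM, at signals of 11.8 and 21.7 intensity units on the acinar and ADM arrays. With normexp neither difference reached 2-fold (−0.82 for duct minus acinar and 0.57 for ADM minus duct). These signals lie below the normexp offset of 50 units, so that setting says little about a probe this dim. Of 9 stomach surface and mucous markers on the array, 5 were well above background in acinar, 4 in ADM and 5 in duct, with summed signals of 271, 54.1 and 32.8 in units of the 75th percentile. The mucous-cell trefoil gene Tff2 was highest in acinar, with differences of −2.78 for ADM and −3.22 for duct, and gave most of the acinar sum, while the gastric surface genes Gkn1 and Gkn2 were not well above background on any. Anxa10, named after its values were seen, was highest in ADM (2.66, against 1.22 in acinar and a level not well above background in duct). At 2-fold, 1 of 6 compared genes of this list was higher in duct than in acinar and 3 were lower, beside 27.4% and 24.6% of all genes. Their part in the Cldn18 values was not tested.

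Cldn12, a widely expressed claudin that lacks the usual scaffold-binding tail, had a level of 0.75 in acinar, 1.55 in ADM and 3.42 in duct. The arrays were ordered duct, ADM, acinar, as for Cldn2. Duct was 6.37-fold above acinar (2.67, scanner error 0.21) and 3.65-fold above ADM (the ADM minus duct difference was −1.87). ADM against acinar was 0.80, within 2-fold, and reached 1.03 with median scaling. Duct markers followed the same order in sum, with 11 of 12 well above background in duct, 10 in ADM and 9 in acinar. Their summed signals were 146, 46.2 and 22.5 in units of the 75th percentile. This order was not particular to duct markers, since the endothelial sums above had it too. So did the sums of 6 mesothelial markers (122.3, 103.5 and 70.1), of which Krt18 (levels of 6.84, 6.67 and 6.12) gave the largest share. The part of these cells in the Cldn2 and Cldn12 values was not tested.

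Cldn23 had a level of −2.26 in acinar, not well above background, 2.76 in ADM and −2.17 in duct. ADM stood far above both other arrays. It was 30.3-fold above duct (4.92, scanner error 0.26) and at least 27.9-fold above acinar, and with normexp the differences were 2.92 and 2.48. Duct against acinar could not be ordered, since duct lay under the lowest measurable acinar level. The ADM array exceeded duct at least 2-fold for 9 of 12 macrophage and monocyte markers, and 1 was lower, where 21.6% of all compared genes were higher and 24.8% lower. Signal well above background was seen for all 12 in ADM, all 12 in duct and 11 in acinar, with summed signals of 1070, 613 and 1445 in units of the 75th percentile, of which the integrin gene Itgam (levels of 9.54, 9.07 and 10.41) gave the largest share. Their part in the ADM values of Cldn23 and Cldn4 was not tested.

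**Figure D3:**
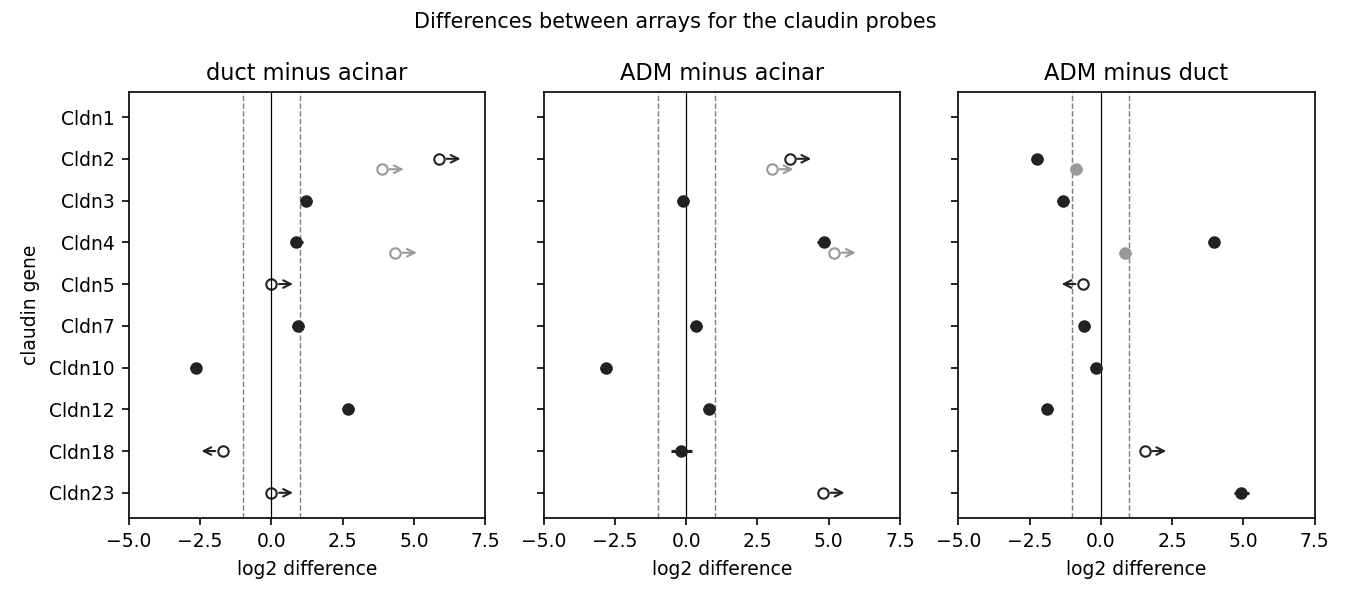
Log2 differences between arrays for each claudin probe in the 3 comparisons, with 2-fold marked by dashed lines. Black is the probe that stands for the gene and grey the second probe, filled points are measured with the scanner software's error, and open points with arrows are bounds; Cldn1 has no point, and the Cldn4 probes lie at 3.95 and 0.85 for ADM minus duct.

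Counted over genes, the claudins did not move as a block. Against acinar cells, 3 of 9 compared claudins were at least 2-fold higher in duct (Cldn2, Cldn3 and Cldn12) and 2 lower (Cldn10 and Cldn18), where 27.4% of all 13820 compared genes were higher and 24.6% lower. The median claudin difference was 0.87 and that of all genes 0. With median scaling the claudin counts became 5 higher and 2 lower, and the share of duct-higher genes among all 2-fold differences went from 52.8% to 64.7% (65.6% with normexp and 34.9% with no filter). In ADM against acinar, 3 of 8 claudins were higher (Cldn2, Cldn4 and Cldn23) and 1 lower (Cldn10), beside 21.8% and 22.0% of 13620 genes. The ADM-higher share of all 2-fold differences was 49.7%, and became 64.5% with normexp and 33.3% with no filter. The median difference was 0.58 for claudins and 0 for all genes.

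Against duct, 3 of 9 claudins were higher in ADM (Cldn4, Cldn18 and Cldn23) and 3 lower (Cldn2, Cldn3 and Cldn12), beside 21.6% and 24.8% of 14465 genes. The median was −0.57 for claudins and −0.05 for all genes. With counts this small the claudin shares lay near those of all genes. The comparisons share arrays with each other and are not independent: a claudin high in ADM appears as a difference against both other cell types.

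Read by gene rather than by count, several patterns were present among the claudins. Cldn2 and Cldn12 were highest in duct, intermediate in ADM and lowest in acinar, although the ADM and acinar levels of Cldn12 were within 2-fold. Cldn10 was highest in acinar, with ADM and duct together below it. Cldn4 and Cldn23 were highest in ADM. By the second probes of Cldn4 and Cldn2, however, ADM and duct were within 2-fold. For Cldn3 and the dim Cldn18, ADM was like acinar and unlike duct. Duct was the highest array for Cldn3 and the lowest for Cldn18.

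Over the 22 other claudins, 6 were well above background on at least 1 array. Cldn6, an embryonic-type claudin, had levels of 3.98 in acinar, 5.59 in ADM and 5.23 in duct, so ADM exceeded acinar 3.04-fold and duct exceeded acinar 2.37-fold. Cldn8, a barrier claudin known from the kidney collecting duct, had 0.41, 0.95 and 3.31, and duct exceeded acinar 7.47-fold and ADM 5.13-fold. This is the same duct-over-ADM order as for Cldn2 and Cldn12. Cldn15, a channel former of the intestine, had 3.05, 2.60 and 1.96 and was 2.14-fold lower in duct than in acinar.

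The remaining 3 were dim. Cldn9 had levels of −1.95 in acinar, −1.35 in ADM and −1.99 in duct and lay within 2-fold in each comparison. Cldn34b1 was measured at −1.12 in acinar and −2.47 in ADM only. Cldn11, known from myelin and testis, was measured in acinar only, at −1.63. Claudins are related in sequence, and whether a probe also bound another member was not tested.

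The tight junction list of 32 other genes covered scaffolds, polarity proteins and the occludin, angulin and JAM membrane proteins. In duct against acinar, 12 of 31 compared genes were at least 2-fold higher (38.7%, beside 27.4% of all genes) and 3 lower (9.68%, beside 24.6%), with a median of 0.69. These counts varied with the processing. With the second probe 9 were higher and 4 lower, and with the mean of probes 10 and 2. With normexp they were 9 and 2, and with median scaling 16 and 2. Patj, a polarity scaffold, was 16.7-fold higher, Tjp3 (ZO-3) 10.3-fold, the adhesion receptor Cxadr 7.82-fold, Tjp1 (ZO-1) 7.11-fold and the polarity gene Crb3 6.15-fold, and Sympk was 7.56-fold lower. The second probes of Patj (−1.21, from 5 probes in all) and Crb3 (−0.87) pointed the other way, so those directions rest on the choice of probe. The second probe of Cxadr was not well above background in duct or acinar. Beside the barrier claudins Cldn3 and Cldn7, the scaffold levels of Tjp1 were 0.92 in acinar, 1.87 in ADM and 3.75 in duct.

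In ADM against acinar, 9 of 27 genes of this list were higher (33.3%, beside 21.8% of all genes) and 8 lower (29.6%, beside 22.0%), with a median of 0.47. Tjp3 was 14.9-fold higher, Patj 11.6-fold (second probe −0.47), the polarity gene Pard3 at least 9.34-fold (its second probe gave no fold) and the tricellulin relative Marveld3 9.19-fold (second probe 1.89). The scaffold Magi1 was 17.8-fold lower and the kinase gene Prkcz at least 9.44-fold. Tjp3 levels were −0.31 in acinar, 3.59 in ADM and 3.05 in duct.

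In ADM against duct, 2 of 31 were higher (6.45%, beside 21.6% of all genes) and 10 lower (32.3%, beside 24.8%), with a median of −0.45. Magi1 was 30.6-fold lower, Prkcz at least 14.2-fold, the tricellulin gene Marveld2 at least 7.66-fold, the polarity gene Pard6b 7.39-fold and Magi3 at least 6.62-fold. Marveld3 was 5.15-fold higher. The second probes of Magi3 (3.63) and Marveld3 (−1.41) opposed these values. Those of Magi1 and Prkcz were not well above background in ADM or duct.

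Of 25 transcription factors known for claudin genes or epithelial state, 12 of 21 compared were at least 2-fold higher in duct than in acinar (57.1%, beside 27.4% of all genes) and 3 lower (14.3%, beside 24.6%). The epithelial ETS factor Ehf was 21.4-fold higher (second probe 2.60) and the repressor Snai2 at least 15.8-fold. In ADM against acinar, 8 of 18 were higher (44.4%, beside 21.8%) and 5 lower (27.8%, beside 22.0%). Grhl1 was at least 62.3-fold lower in ADM and Sp1, which binds GC boxes, 12.1-fold lower. Ehf was 6.31-fold higher (second probe 1.80), and Sp3 of the same list lay within 2-fold (−0.42). In ADM against duct, 2 of 19 were higher (10.5%, beside 21.6%) and 10 lower (52.6%, beside 24.8%), with Sp1 33.7-fold, Foxa1 at least 23.8-fold and Grhl1 at least 15.7-fold lower. Sp3 lay within 2-fold in ADM against duct too (−0.43). The intestinal factor Cdx2 was not well above background on any array. Counts of this list were taken in the reported setting only.

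**Figure D4:**
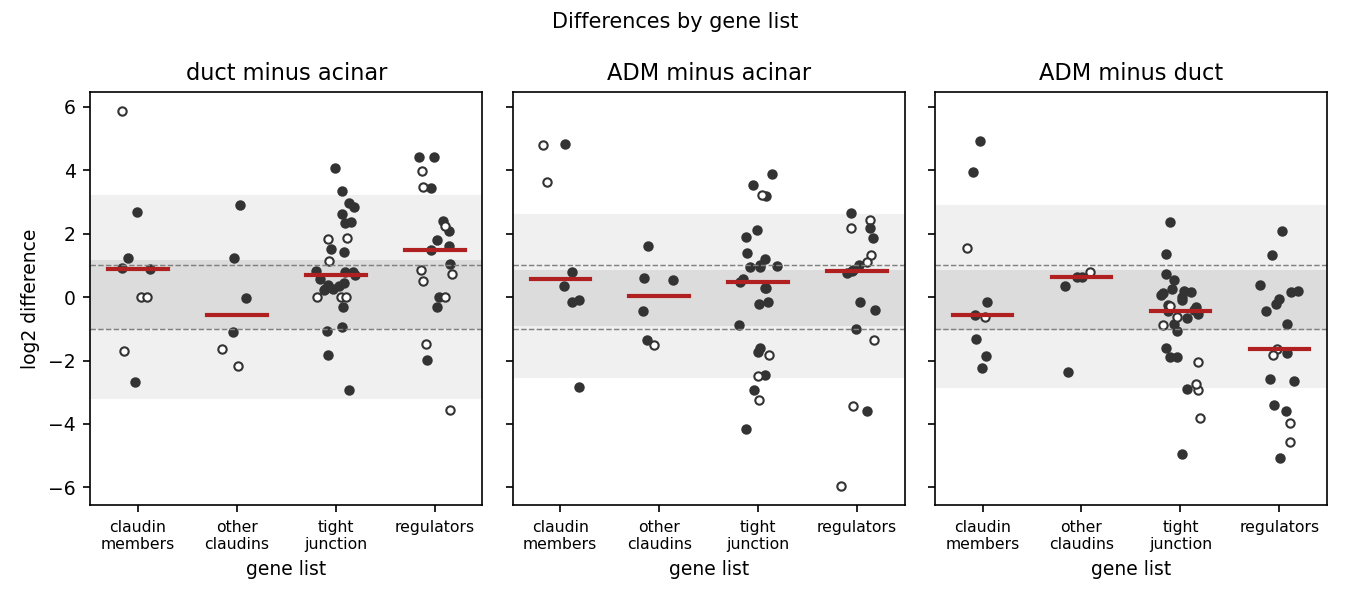
Log2 differences of single genes in the 10 claudins, the other claudins, the tight junction list and the regulators, for the 3 comparisons. Filled points are measured, open points are bounds, red bars are list medians, dashed lines mark 2-fold, and grey bands hold the central 50% and 90% of all compared genes; the claudin medians were 0.87, 0.58 and −0.57.

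Genes with patterns most like 3 of the claudins were found by the distance between their 3 levels, each gene less its own mean, among the 9525 genes well above background on all arrays. Nearest to Cldn4 were Ccl9 (distance 0.51 log2 units), H2-DMa (0.52) and Vcam1 (0.60), with 0 genes within 0.25. Nearest to Cldn10 were Slc35c2, Arl2 and D030028A08Rik, and 22 genes lay within 0.25. Nearest to Cldn3 were Hgf, Eif2d and Tpcn1, and 176 genes lay within 0.25. With 3 arrays such a likeness is a description, and that of Cldn4 uses its brighter probe.

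**Figure D5:**
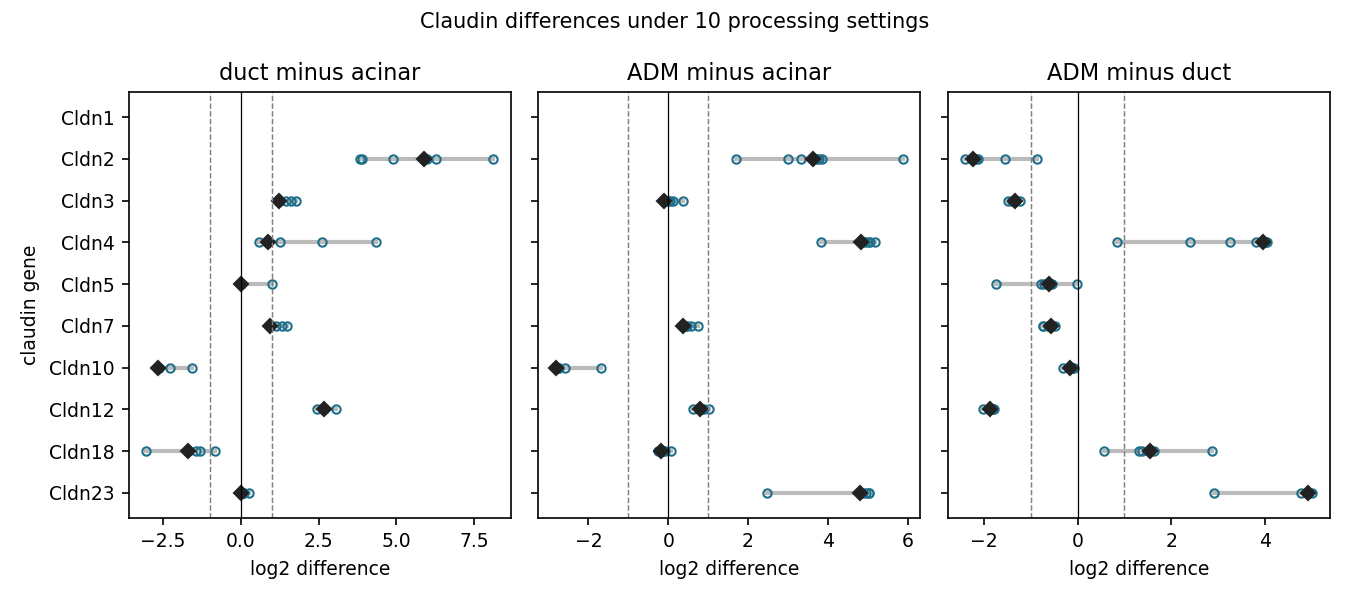
Log2 differences of each claudin under 10 processing settings in the 3 comparisons, the reported setting as a black diamond and the 9 alternatives as open circles, with 2-fold dashed. Cldn4 ranged from 0.85 to 4.04 for ADM minus duct and from 3.83 to 5.19 for ADM minus acinar.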

How the data were processed

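Amplified cDNA was labelled with Cy3 and hybridised to 1-colour Agilent arrays, 1 per group. The amounts listed for each array were 1.181 ng of amplified RNA and 2.0 µg of labelled cDNA. Spot brightness was deposited by the authors as linear intensity. The scanner software, Agilent Feature Extraction 11.5.1.1 per the submitters' processing notes, had removed background and a spatial trend inside each array, and its header names mm9 for the probes. The deposited flags of 0 or 1 for outlier spots, saturation and signal well above background were used as given. The deposited log2 values of the series equal the log2 processed signal plus 1 constant each (ADM −6.17, duct −6.58, acinar −5.13) within 0.001 for at least 99.1% of 32939 rows. Their column medians were −0.56, −0.63 and −0.57, and the sources used here do not say why these probes were kept.

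Controls and outlier spots were left out, repeated spots were averaged on the log2 scale, and each array's 75th percentile over 55664 probes was subtracted (72.2, 95.7 and 35.2 intensity units for ADM, duct and acinar). Probes well above background made up 49.7%, 50.0% and 40.7%, and 0 spots were saturated. Each claudin probe had 1 spot; repeated spots of other probes varied with SDs of 0.104, 0.087 and 0.115 log2 units (medians). Through RefSeq accessions 28020 probes matched a symbol of GRCm38.p6 and 27644 did not. Genes entered a comparison if their probe was well above background on either array. A dim side took the larger of its measured signal and that array's lowest signal well above background, which gives a bound ("at least"), and a bound past 0 was set to 0. Genes were counted at 2-fold. With 1 array a group no test between groups was possible. All 10 claudins are named, 6 tight junction genes and up to 4 regulators a comparison by size of difference (values of some that this picks are not reported here), and the other claudins where measured. The members and lists were chosen with earlier results of these data known. The calling of differences was checked on simulated arrays, in which only bright probes were changed, by more than 2-fold and with little noise. This checks the code and covers neither dim probes nor disagreement between probes. Alternatives were another background correction (normexp of limma 3.58.1 with an offset of 50), other scalings, filters and probe choices. Python 3.11.15 and R 4.3.3 were used.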

Additional observations from a re-analysis of the deposited data

How the results depend on the processing

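The number of arrays limits every value, and dim probes limit Cldn1, Cldn5 and Cldn18 most. The mean spot signal is not a column of the tables used here, so normexp was run on the median spot signal, an alternative chosen after seeing the data. Leaving out a replicate was not possible with 1 array a group. No paired analysis was possible because each group has 1 array. Median scaling moved measured differences by 0.39 (duct minus acinar), 0.23 (ADM minus acinar) and −0.16 (ADM minus duct), while bounds held at 0 moved less or not at all. Over the 10 settings no claudin with a 2-fold difference turned its sign. Those that stayed past 2-fold wherever they could be compared were Cldn2, Cldn3, Cldn10 and Cldn12 for duct minus acinar, Cldn2, Cldn4, Cldn10 and Cldn23 for ADM minus acinar, and Cldn3, Cldn12 and Cldn23 for ADM minus duct. Several settings could not move these values. Cldn3, Cldn10, Cldn12 and Cldn23 have 1 probe each, so the probe choices returned the same value. The filters leave measured differences unchanged, and the deposited log2 values are the same signal plus a constant.

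Counts of claudins past 2-fold that moved by more than 1.5 times were these. With only genes well above background on all arrays they fell to 3 for duct minus acinar (1 of them lower), to 2 for ADM minus acinar (1 higher) and to 3 for ADM minus duct (1 higher), because fewer genes were compared. In duct minus acinar, 5 were higher with median scaling and 1 was lower with normexp, and in ADM minus acinar 2 were lower with no filter. With the second probe the count for ADM minus duct went from 6 to 4 (2 higher, 2 lower), a smaller move. For duct minus acinar, median scaling took Cldn4 (1.26) and Cldn7 (1.32) past 2-fold, and normexp brought Cldn18 (−0.82) within it. For ADM minus duct, Cldn4 (0.85) and Cldn2 (−0.87) fell within 2-fold with the second probe. For the tight junction list in ADM minus acinar, normexp gave 11 past 2-fold (3 lower), and the filter on all arrays and the second probe each left 5 lower. In ADM minus duct the filter on all arrays gave 7 (1 higher, 6 lower), the mean of probes gave 7 with 0 higher, and normexp left 1 higher.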
